A study of Homo sapiens with 6 samples.

Results

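The genes described here encode the nuclear lamina and the inner nuclear membrane of A549 cells: the lamins LMNA, LMNB1 and LMNB2, the lamin B receptor LBR, the LEM-domain proteins TMPO, EMD and LEMD3, their partner BANF1, and SUN1 and SUN2. They were taken by gene symbol from the deposited table, which lists all 10 of them among 19990 symbols. A549 is a human lung adenocarcinoma line, labelled here as an epithelial-like cell. RNA was sequenced in 6 libraries, 2 labelled WT with a control siRNA (non-targeting in the titles), 2 labelled TIMM13 knockdown with TIMM13_siRNA1 and 2 labelled TIMM13 knockdown with TIMM13_siRNA2. The design text asks how TIMM13, a small chaperone of mitochondrial protein import, acts on proliferation. All 6 samples also carry the treatment label "cell differentiation", and the sources used here give no siRNA dose or time and leave it unsaid if the replicates came from separate cultures, so p-values measure only the spread between these samples, which may be technical. The values are an abundance per gene scaled by the authors, in a unit that is not stated, and levels are compared here only between libraries of the same gene.

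The lamina is a meshwork of intermediate filaments under the inner nuclear membrane. LMNA gives lamins A and C by splicing, and LMNB1 and LMNB2 give the B-type lamins, which stay farnesylated and attached to the membrane. LBR and the LEM-domain proteins tie lamins to chromatin, the latter through BANF1, and SUN proteins join the lamina to the cytoskeleton. Loss of lamin B1 and of LBR is widely used as a sign of senescence, and both are more abundant in many proliferating cells.

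The labels were checked first. The control libraries read 2.09 and 2.56 for TIMM13, those labelled siRNA 1 read 2.09 and 1.83, and those labelled siRNA 2 read 1.82 and 2.31. The groups overlapped, and neither siRNA gave a detectable fall (limma adjusted p = 0.653 for siRNA 1 and 0.666 for siRNA 2), so every direction given here belongs to the label and not to a measured loss of TIMM13. Column totals ran from 205986 to 219820 in 5 libraries and reached 299936 in siRNA 2 replicate 2, and the depth in reads is unknown. Across genes the control pair correlated at 0.888, the siRNA 1 pair at 0.895 and the siRNA 2 pair at 0.805. The keratins and other epithelial markers summed to between 1552 and 1697 in control, 1703 and 1796 in siRNA 1 and 2143 and 3234 in siRNA 2. KRT8, KRT18 and KRT7 carried these sums. EPCAM stood at 1.63 and 2.17 in control, 4.77 and 5.70 with siRNA 1 and 4.59 and 6.53 with siRNA 2, and neither it nor any other of the 6 markers was called (EPCAM limma adjusted p = 0.0966 and 0.0732). The 3 leukocyte markers summed to 0 in 5 libraries and to 0.557 in siRNA 2 replicate 2, with CD3E at 0 throughout. The 3 endothelial markers summed to at most 0.0885 in any library. Fibroblast markers summed to at most 0.874 in control, 2.58 in siRNA 1 and 4.42 in siRNA 2, most of it COL1A1, and the part of these markers in the results was not tested. In bulk RNA, fewer cells of a type and less RNA per cell cannot be told apart.

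LMNB2 is the member whose gene lies beside the siRNA target. In GENCODE release 29 on GRCh38, LMNB2 (ENSG00000176619) spans 2427638 to 2456996 of chromosome 19 and TIMM13 (ENSG00000099800) spans 2425624 to 2427894, both on the minus strand. They share 257 bases (2427638 to 2427894), which are 11.3% of the length of TIMM13 and 0.875% of that of LMNB2. All 257 are exonic in both genes and none is coding in either. On the LMNB2 side they belong to 1 of its 6 annotated transcripts, which is non-coding. The 1 protein-coding LMNB2 transcript ends 271 bases before the TIMM13 start, and in RefSeq on GRCh38.p14 the 2 genes are 579 bases apart. On the TIMM13 side they lie in the untranslated start of 1 of 2 transcripts. Reads from these 257 bases cannot be assigned to either gene by strand, and no source used here says how the authors assigned them.

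**Figure D1:**
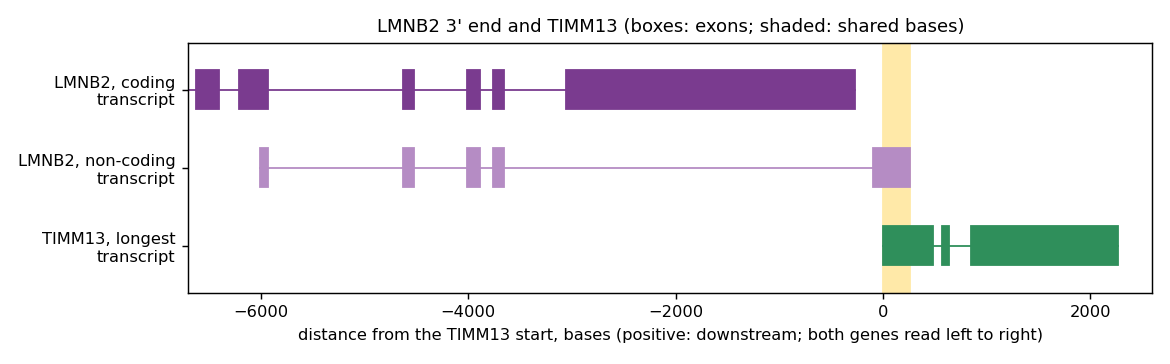
Exons (boxes) of the protein-coding LMNB2 transcript, of the non-coding LMNB2 transcript that reaches TIMM13, and of the longest TIMM13 transcript, by distance in bases from the TIMM13 start. The 257 shaded bases are shared by the non-coding LMNB2 transcript and TIMM13, while the coding transcript ends 271 bases before TIMM13.

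LMNA, LMNB2 and LEMD3 were the 3 members that stood higher in both siRNA 1 libraries than in both control libraries, an order that 36.8% of all tested genes also had. The upstream sequence of these 3 is shown because they share that order of values. Each stretch holds the 200 bases from 250 to 51 before the RefSeq start (GRCh38.p14), 5′ to 3′ on the gene's own strand, and lies outside every exon annotated in GENCODE release 29. Capitals mark 3 motifs searched on both strands: CCAAT, the cell cycle element TTTGAA, and the E2F-type sites TTTCCCGC, TTTGGCGC, TTTCGCGC and TTTGCCGC.
LMNA, chr1:156082323-156082522, plus strand: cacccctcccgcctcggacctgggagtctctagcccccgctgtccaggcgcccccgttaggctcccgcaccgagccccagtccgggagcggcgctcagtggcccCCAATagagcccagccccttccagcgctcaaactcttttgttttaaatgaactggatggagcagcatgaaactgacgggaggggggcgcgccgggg
LMNB2, chr19:2457010-2457209, minus strand: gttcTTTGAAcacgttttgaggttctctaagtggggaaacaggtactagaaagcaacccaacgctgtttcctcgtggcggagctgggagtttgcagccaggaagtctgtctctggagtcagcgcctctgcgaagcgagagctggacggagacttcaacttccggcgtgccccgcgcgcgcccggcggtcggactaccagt
LEMD3, chr12:65169333-65169532, plus strand: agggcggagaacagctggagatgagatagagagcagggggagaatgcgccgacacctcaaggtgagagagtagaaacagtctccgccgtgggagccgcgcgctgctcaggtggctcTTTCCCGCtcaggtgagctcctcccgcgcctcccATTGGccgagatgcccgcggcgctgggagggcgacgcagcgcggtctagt
No searched motif is in all 3 stretches: LMNA holds CCAAT, LMNB2 holds TTTGAA, and LEMD3 holds CCAAT on the other strand (ATTGG in capitals) and TTTCCCGC. The motifs found do not overlap each other. Of 34782 RefSeq windows of the same length and place, 27.4% hold CCAAT, 11.4% hold TTTGAA and 2.21% hold an E2F-type site. The 9 members in that table have 15 windows, of which 6 hold CCAAT, 2 hold TTTGAA and 1 holds an E2F-type site. LMNA has 3 of the 15, and the one shown is its only window outside annotated exons. SUN1 is not among the 9. The matches describe the letters of these windows and not bound sites.

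None of the 10 members passed the test in any comparison. The test was limma on log2(value + 1) over all 6 libraries, with Benjamini-Hochberg adjustment over 11486 genes and a threshold of 0.05, and all 10 members passed the filter on low values. Both siRNA groups are set against the same control libraries. For siRNA 1 against control it called 0 members beside 1.63% of all genes (0.705% higher and 0.923% lower). For siRNA 2 against control it called 0 members beside 3% of all genes (1.24% higher and 1.76% lower). For the mean of both siRNAs it called 0 beside 1.19% (0.723% higher and 0.47% lower), and for siRNA 1 against siRNA 2 it called 0 beside 3.27% (1.91% higher and 1.37% lower). At an unadjusted p under 0.05 the counts of members were 1, 0, 0 and 1, against 20.5%, 25.7%, 23.1% and 24.3% of all genes, so the members did not exceed the background in any of them. No other tool was run on these values. With siRNA 1, both libraries stood above both controls in 3 members (36.8% of all genes) and below both in 3, LMNB1, LBR and SUN2 (31.1% of all genes). With siRNA 2, both stood above in 2, LMNA and LEMD3 (33.7% of all genes), and below in 3, LMNB1, LBR and TMPO (25.9% of all genes). The share of all genes with every siRNA library on one side of both controls was not counted. Nor was the share with both siRNA 1 libraries above or below every other library. These orders are of the values as deposited, without scaling of columns. The median log2 fold change of the members was −0.08 with siRNA 1 and 0.06 with siRNA 2, beside 0.05 and 0.14 over all genes. The 0.14 over all genes with siRNA 2 went to −0.05 when columns were scaled to the same upper quartile and to −0.06 when scaled to the same total. A log2 change of a member with siRNA 2 is therefore read against 0.14.

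**Figure D2:**
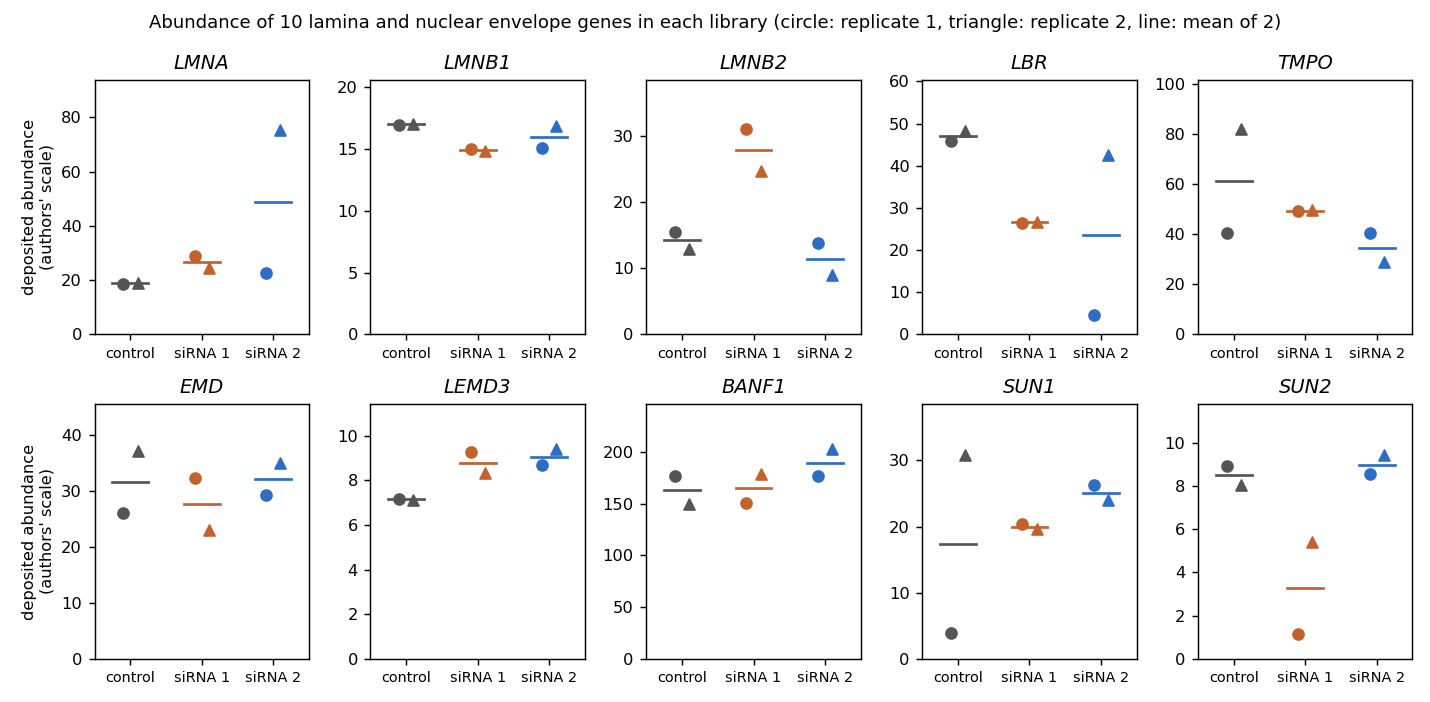
Deposited abundance, on the authors' scale, of each of the 10 genes in each library, with replicate 1 as a circle, replicate 2 as a triangle and the mean of 2 as a line. LMNB2 stands at 24.7 and 30.9 with siRNA 1 against 13.0 and 15.4 in control, while LMNA, LBR, TMPO, SUN1 and SUN2 each have 1 group whose replicates lie over 2-fold apart.

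LMNB2, encoding lamin B2, read 15.4 and 13.0 in control, 30.9 and 24.7 with siRNA 1, and 13.8 and 8.98 with siRNA 2. Both siRNA 1 libraries were above the 4 others, and the siRNA 2 libraries overlapped the controls. The means were 14.2 ± 1.73, 27.8 ± 4.44 and 11.4 ± 3.44 (SD, n = 2). The log2 fold change was 0.92 with siRNA 1 (SE 0.273, 95% interval 0.20 to 1.64, limma adjusted p = 0.166) and −0.32 with siRNA 2 (SE 0.273, 95% interval −1.03 to 0.40, limma adjusted p = 0.485). Neither passed the test over all genes. LMNB2 was called higher with siRNA 1 in 4 of 15 other settings, with adjusted p of 0.0441 in a fit of only the groups compared, 0.0205 with library weights, 0.0467 without siRNA 2 replicate 1 and 0.0453 without siRNA 2 replicate 2. Those settings called 21.8%, 26.1%, 20.8% and 21.1% of all genes, so a call there is not particular to LMNB2. Over all 15 settings the change ran from 0.76 to 1.08 and the adjusted p from 0.0205 to 0.564. The difference between the siRNAs was 1.23 (SE 0.273, 95% interval 0.52 to 1.95, limma adjusted p = 0.0866), and it was called, at 1.52 (adjusted p = 0.0176), without siRNA 2 replicate 1, where 39.7% of all genes were called.

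LMNB1, encoding lamin B1 and read as a marker of proliferation and senescence, stood at 16.9 and 17.0 in control, 15.01 and 14.8 with siRNA 1 and 15.04 and 16.9 with siRNA 2. In the deposited values the siRNA libraries were below the controls by little. The closest to them was siRNA 2 replicate 2, the column with the highest total. The means were 17.0 ± 0.102, 14.9 ± 0.130 and 16.0 ± 1.30 (SD, n = 2). The log2 fold change was −0.17 (SE 0.158, 95% interval −0.59 to 0.24, limma adjusted p = 0.611) with siRNA 1 and −0.09 (SE 0.158, 95% interval −0.50 to 0.33, limma adjusted p = 0.745) with siRNA 2. Before adjustment, the interval for siRNA 1 leaves out a 2-fold decrease and takes in smaller ones. When columns were scaled to the same upper quartile or the same total, the change with siRNA 2 was −0.30 or −0.31. Neither was called (limma adjusted p = 0.452 and 0.507). The difference between the siRNAs, −0.09, turned positive (0.10 and 0.08) with the same upper quartile or the same total.

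LBR, an inner membrane protein that binds B-type lamins and heterochromatin and also acts as a sterol reductase, stood at 45.8 and 48.1 in control and at 26.4 and 26.7 with siRNA 1. With siRNA 2 it stood at 4.64 in replicate 1 and 42.6 in replicate 2. All 4 siRNA libraries were below both controls, but the siRNA 2 pair was 9.18-fold apart, a gap on the log2(value + 1) scale that 2.90% of tested genes matched or exceeded in that group. The siRNA 1 and control pairs were 1.01-fold and 1.05-fold apart. In the fit of all libraries, which shares that spread, the log2 fold change was −0.80 (SE 1.00, limma adjusted p = 0.725) with siRNA 1 and −1.61 (SE 1.00, limma adjusted p = 0.363) with siRNA 2. LBR was called lower with siRNA 1, at the same −0.80, in a fit of only control and siRNA 1 (limma adjusted p = 0.0151), which called 21.8% of all genes. It was also called, at the same −0.80, when either siRNA 2 library was left out. The spread of those fits came from the same control and siRNA 1 pairs, so they repeat the first. With library weights, which called 26.1% of all genes, LBR was not called (adjusted p = 0.145). For siRNA 2 the value was −3.09 (adjusted p = 0.00740) without replicate 2, where 15.4% of all genes were called, and −0.14 without replicate 1, so 1 library sets it. The difference between the siRNAs went from 0.81 (adjusted p = 0.631) to −0.66 (adjusted p = 0.0136) without siRNA 2 replicate 1 and to 2.29 (adjusted p = 0.00841) without siRNA 2 replicate 2, where 39.7% and 14.4% of all genes were called.

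**Figure D3:**
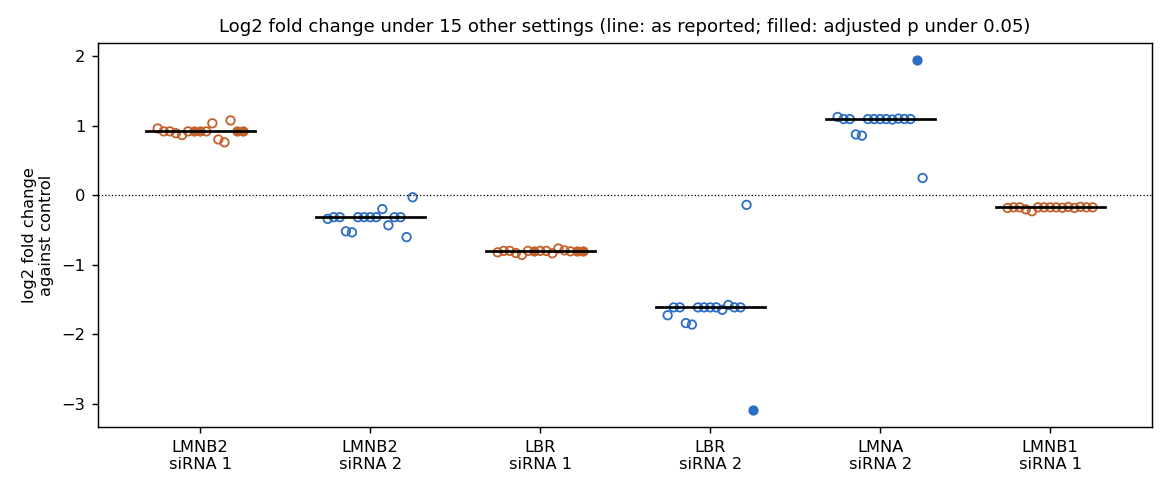
Log2 fold change against control of LMNB2, LBR, LMNA and LMNB1 under 15 other settings of the analysis (points, filled where the adjusted p was under 0.05) and as reported (line). LMNB2 with siRNA 1 runs from 0.76 to 1.08, while LBR with siRNA 2 runs from −3.09 to −0.14 and LMNA with siRNA 2 from 0.25 to 1.94.

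LMNA, encoding lamins A and C, stood at 18.8 and 18.95 in control, 28.8 and 24.5 with siRNA 1 and 22.6 and 75.4 with siRNA 2. All 4 siRNA libraries were above both controls, and siRNA 2 replicate 2 stood 3.34-fold above its partner. Group means with their SD (n = 2) were 18.9 ± 0.133, 26.7 ± 3.06 and 49.0 ± 37.3. On the log2 scale siRNA 1 gave 0.47 (SE 0.590, limma adjusted p = 0.724) and siRNA 2 gave 1.10 (SE 0.590, limma adjusted p = 0.310). For siRNA 2 the change was 0.25 without replicate 2, and without replicate 1 it was 1.94 and called (adjusted p = 0.00728), as were 40.4% of all genes. The log2 difference of siRNA 1 against siRNA 2 was −0.62 (adjusted p = 0.535), which turned to 0.23 without siRNA 2 replicate 2 and was −1.47 and called (adjusted p = 0.0105, with 39.7% of all genes) without siRNA 2 replicate 1.

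The LEM-domain genes differed in how closely their replicates stood. LEMD3, the inner membrane protein also called MAN1, which binds SMAD proteins, stood at 7.19 and 7.14 in control, 9.27 and 8.33 with siRNA 1 and 8.70 and 9.41 with siRNA 2. All 4 siRNA libraries were above both controls. That order is of the values as deposited. The log2 fold changes were 0.26 (SE 0.163, 95% interval −0.17 to 0.69, limma adjusted p = 0.451) and 0.30 (SE 0.163, 95% interval −0.13 to 0.73, limma adjusted p = 0.310), and neither passed. They were 0.24 and 0.10 when columns were scaled to the same upper quartile. At the same total they were 0.21 and 0.08. TMPO, whose splice forms encode the lamina-associated polypeptide 2 proteins, stood at 40.6 and 82.0 in control, 49.1 and 49.6 with siRNA 1 and 40.5 and 28.8 with siRNA 2. Both siRNA 2 libraries were below both controls, replicate 1 barely so, and the control pair was 2.02-fold apart. The log2 fold change of TMPO with siRNA 2 was −0.74 (SE 0.392, limma adjusted p = 0.302), and with siRNA 1 it was −0.22, or 0.28 without control replicate 2. EMD, encoding emerin, stood at 26.1 and 37.2 in control, 32.4 and 23.1 with siRNA 1 and 29.2 and 35.1 with siRNA 2. Its 3 groups overlapped, with log2 fold changes of −0.18 and 0.04 (SE 0.280 each), the second of which turned negative under both scalings (−0.18 and −0.20).

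BANF1, the small DNA-binding protein through which LEM domains hold chromatin, stood at 177 and 150.1 in control, 151 and 179 with siRNA 1 and 177 and 203 with siRNA 2. The groups overlapped, and siRNA 2 replicate 2 was the highest. The log2 fold changes were 0.01 (SE 0.199, 95% interval −0.51 to 0.53) and 0.21 (SE 0.199, 95% interval −0.31 to 0.74), and both turned slightly negative when columns were scaled to the same upper quartile (−0.02 and −0.01) or the same total (−0.05 and −0.03).

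SUN1 and SUN2, which cross the inner membrane and bind nesprins in the LINC complex, each had 1 library far from the rest of its group. SUN1 stood at 3.93 and 30.8 in control, 20.3 and 19.6 with siRNA 1 and 26.2 and 23.95 with siRNA 2. The 4 siRNA libraries lay between the controls, which were 7.82-fold apart, a gap that 2.57% of tested genes matched or exceeded. The log2 fold changes of 0.74 and 1.06 (SE 0.914 each) became −0.60 and −0.29 without control replicate 1. SUN2 stood at 8.93 and 8.06 in control, 1.15 and 5.41 with siRNA 1 and 8.56 and 9.41 with siRNA 2. Both siRNA 1 libraries were below the 4 others and 4.68-fold apart. The log2 fold change with siRNA 1 was −1.35 (SE 0.552, 95% interval −2.83 to 0.12, limma adjusted p = 0.276), and it was −2.14 without siRNA 1 replicate 2 and −0.57 without siRNA 1 replicate 1. With siRNA 2 it was 0.07 (SE 0.552), which turned to −0.13 and −0.14 under the same upper quartile and the same total. By gene span, SUN1 overlaps GET4 (19884 bases) and SUN2 overlaps DNAL4 (15636 bases) on the same strand. Shared exons were not looked up, so it is unknown if reads there could belong to either gene.

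**Figure D4:**
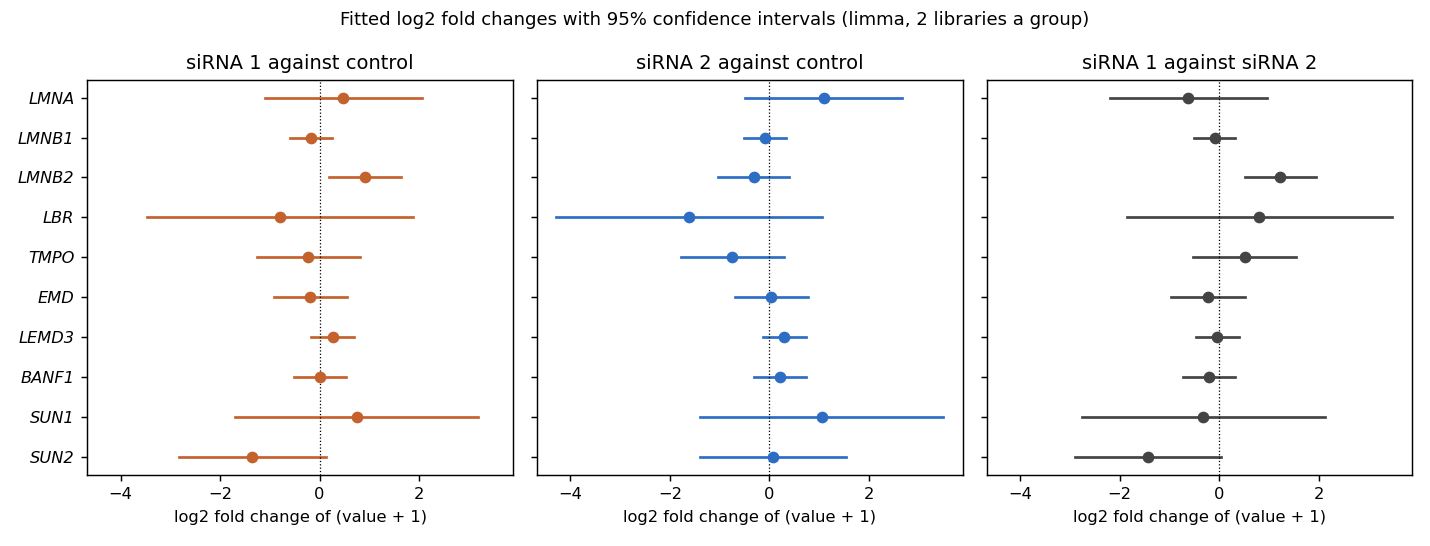
Fitted log2 fold change on the log2(value + 1) scale (points) with its 95% confidence interval (bars) for the 10 genes in 3 comparisons. The intervals of LMNB2 leave out 0 for siRNA 1 against control (0.20 to 1.64) and for siRNA 1 against siRNA 2 (0.52 to 1.95) before adjustment over all genes, and those of LBR and SUN1 are the widest of the 10.

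In 5 of the 10 members, LMNA, LBR, TMPO, SUN1 and SUN2, the replicates of at least 1 group were over 2-fold apart. This was so for 34.3% of the 11486 tested genes. The library that stood apart was a different one in each of the 5: siRNA 2 replicate 2 for LMNA, siRNA 2 replicate 1 for LBR, control replicate 2 for TMPO, control replicate 1 for SUN1 and siRNA 1 replicate 1 for SUN2. The number of annotated transcripts was 25, 8, 13, 35 and 18 in these 5, and 8, 6, 9, 6 and 8 in LMNB1, LMNB2, EMD, LEMD3 and BANF1. The table has 1 row per symbol, so a change of transcript and a change of level cannot be told apart.

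**Figure D5:**
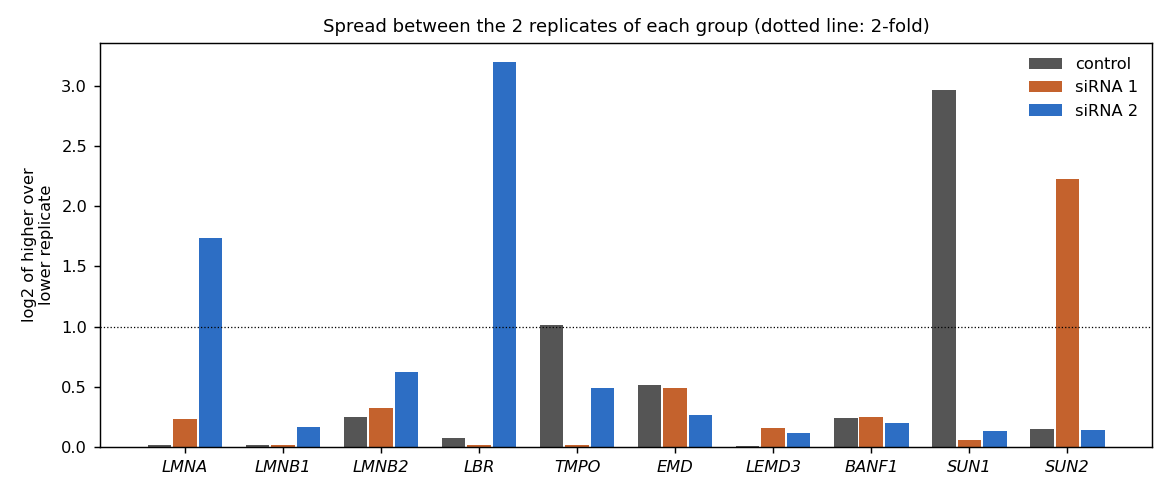
Ratio of the higher to the lower replicate in each group, as log2, for the 10 genes, with 2-fold as a dotted line. The bars pass the line in siRNA 2 for LMNA (3.34-fold) and LBR (9.18-fold), in control for TMPO (2.02-fold) and SUN1 (7.82-fold) and in siRNA 1 for SUN2 (4.68-fold).

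The genes whose log2 values followed those of 3 members most closely were looked up among 7301 tested genes with a mean of at least 5, by Pearson correlation over the 6 libraries, which share their depth and scaling. These genes were picked for following the member, so a like order of libraries is a product of that choice. For LMNB2 they were the phosphatase DUSP16 (0.998), the RAB11 effector RAB11FIP5 (0.995) and IFFO2 (0.992). DUSP16 stood at 12.3 and 11.02 in control, 20.9 and 18.1 with siRNA 1 and 12.1 and 8.34 with siRNA 2, the same order of libraries as LMNB2. For LBR they were the receptor tyrosine kinase AXL (0.999), CCDC117 (0.997) and ZFYVE16 (0.993), and AXL also stood low in siRNA 2 replicate 1, at 1.48 against 23.1 in replicate 2. For LMNB1 they were INO80C (0.997), MOB4 (0.996) and MFGE8 (0.996), whose values spread far wider than those of LMNB1: MFGE8 stood at 41.5 and 40.8 in control and at 6.72 and 6.01 with siRNA 1.

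Of 15 genes read beside LMNB1 and LBR for proliferation and senescence, 12 were tested. With siRNA 1, 1 was called higher and 1 lower, beside 0.705% and 0.923% of all genes. With siRNA 2, 0 were called higher and 2 lower, beside 1.24% and 1.76% of all genes. The median log2 fold change was −0.71 and −0.83, beside 0.05 and 0.14 over all genes. Of the 12, 11 were negative with siRNA 1 and 8 with siRNA 2, beside 5305 and 4847 of all 11486 genes. CDKN1A, encoding the cell cycle inhibitor p21, stood at 17.6 and 21.2 in control, 206.1 and 167 with siRNA 1 and 83.3 and 55.9 with siRNA 2. It was called with siRNA 1 (log2 fold change 3.20, SE 0.271, limma adjusted p = 0.0375) and not with siRNA 2 (1.77, SE 0.271, limma adjusted p = 0.0515), and its difference between the siRNAs was not called (adjusted p = 0.0682). TOP2A, the topoisomerase of dividing cells, was called lower with both (−1.84 and −1.96, SE 0.228 each, limma adjusted p = 0.0460 and 0.0392), at 14.7 and 14.6 with siRNA 1 and 10.996 and 16.4 with siRNA 2 against 55.9 and 54.5. The proliferation marker MKI67 (chosen after its values were seen) stood at 21.98 and 18.7 in control, 13.6 and 10.1 with siRNA 1 and 9.02 and 5.48 with siRNA 2, and was not called. Other genes of the list went the other way with siRNA 2 (also chosen after their values were seen). CCNB1, EZH2 and HMGB1 had log2 fold changes of 0.07, 0.06 and 1.03 there, none called. Among secreted proteins of senescent cells, GDF15 was called lower with siRNA 2 (−2.02, SE 0.242, limma adjusted p = 0.0394) and not with siRNA 1 (adjusted p = 0.212), and its difference between the siRNAs was not called (adjusted p = 0.0643). CXCL8 had negative log2 fold changes with both, −1.11 and −0.99 (SE 0.239 for both, limma adjusted p = 0.101 and 0.0979), and was not called. CDKN2A was listed at 0 in 4 libraries and at up to 0.143 in the others, and CDKN2B was at or near 0 in all 6. The calls of CDKN1A and TOP2A with siRNA 1 do not stand without any 1 of the control or siRNA 1 libraries, since limma then called 0 genes of all. The calls of TOP2A and GDF15 with siRNA 2 are lost in the same way without any 1 of the control or siRNA 1 libraries, and in a fit of only control and siRNA 2, each with 0 genes called.

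Of 26 other genes of the nuclear envelope and of lamin processing, 21 were tested and 0 were called in any of the 4 comparisons. The share called of all genes was 1.63%, 3%, 1.19% and 3.27%. At an unadjusted limma p under 0.05 there were 4, 4, 5 and 5 of the 21, beside 20.5%, 25.7%, 23.1% and 24.3% of all genes. The median log2 fold change was −0.15 with siRNA 1 and 0.04 with siRNA 2, beside 0.05 and 0.14 over all genes. Of the 21, 14 and 8 were negative, beside 5305 and 4847 of all 11486 genes. ICMT, which methylates the farnesylated end of lamins, stood at 15.04 and 14.8 in control, 35.4 and 32.7 with siRNA 1 and 33.4 and 21.4 with siRNA 2. All 4 siRNA libraries of ICMT were above both controls (1.14 and 0.80 on the log2 scale, SE 0.253 for both, limma adjusted p = 0.104 and 0.146). Both libraries stood above both controls in 36.8% of all genes with siRNA 1 and in 33.7% with siRNA 2. TOR1B, an ATPase of the nuclear envelope lumen, stood at 18.5 and 20.1, 8.68 and 7.54, and 15.4 and 11.98, and was below the controls in all 4 siRNA libraries (−1.16 and −0.48, SE 0.199 each, limma adjusted p = 0.0758 and 0.223). Both libraries stood below both controls in 31.1% of all genes with siRNA 1 and in 25.9% with siRNA 2. The shares with such an order for both siRNAs at once were not counted. TOR1AIP2, an activator of torsins, stood at 15.6 and 15.04, 9.99 and 7.38, and 11.1 and 11.5, and TMEM43, an inner membrane protein that binds emerin, at 26.02 and 26.4, 15.6 and 13.6, and 24.9 and 19.1. CBX1, a heterochromatin protein of the family that binds LBR, stood at 2.65 and 2.39 in control, 39.0 and 3.39 with siRNA 1, and 62.2 and 51.7 with siRNA 2. Its siRNA 1 replicates were 11.5-fold apart, and it was not called (limma adjusted p = 0.413 and 0.117).

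On the other side of LMNB2 from TIMM13, GADD45B, a growth arrest and stress gene on the opposite strand, stood at 51.5 and 51.6 in control, 18.4 and 15.1 with siRNA 1 and 23.0 and 23.97 with siRNA 2. It was called lower with siRNA 1 (log2 fold change −1.57, SE 0.169, limma adjusted p = 0.0422) and not with siRNA 2 (−1.10, SE 0.169, limma adjusted p = 0.0517), with a difference between the siRNAs that was not called (adjusted p = 0.191). The neighbours TMPRSS9 and GNG7 were listed at 0.199 or less in all 6 libraries, and SPPL2B ranged from 0.548 to 6.74 with overlapping groups. Like the calls of CDKN1A and TOP2A, that of GADD45B with siRNA 1 is lost without any 1 of the control or siRNA 1 libraries.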

How the data were processed

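Poly(A)-selected, strand-specific RNA libraries were sequenced, per the labels' protocols. Trim Galore, STAR, featureCounts and hg38 stand in the submitters' processing notes, without versions or roles. The authors deposited 1 table with a fractional abundance signal per gene symbol and library; its unit, and the tool behind it, are not given in the sources used here. It holds no counts, so no counting interval or floor is given.

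Libraries were grouped by title. Of the genes, 11486 reached 1 or more in 2 or more libraries and were used. Values were used as log2(value + 1), which understates changes of low genes. A mean for each group was estimated from the 6 libraries together (3 residual degrees of freedom) with limma 3.58.1 in R 4.3.3, with trend and robust options, and p-values were Benjamini-Hochberg adjusted over all genes used. The test was also run on simulated data in which the 3 groups had the same spread for each gene. In the deposited values the median replicate gap was 0.453 in siRNA 2, 0.122 in control and 0.144 in siRNA 1, as log2(value + 1). The simulation does not cover that difference, and nothing is concluded from it here. Alternatives changed the pseudocount (0.1), filter, scaling, block, libraries, weights or variance model. Symbols were matched to GENCODE release 29 (94.6% matched); promoter windows are RefSeq's. Members, lists and tests were chosen with earlier results of these data known. From each list, up to 5 genes are named by smallest p in the comparison of the averaged siRNAs, with the 3 genes most like LMNB1, LMNB2 and LBR and the annotated neighbours; others are said to be chosen later. One gene that this rule names is not reported here.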

Additional observations from a re-analysis of the deposited data

Results flagged for a closer look

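LMNB2 stood above the control mean in both siRNA 1 libraries and below it in both siRNA 2 libraries. The siRNA 2 libraries overlapped the controls (13.8 and 8.98 against 15.4 and 13.0). The share of all genes with such an order was not counted. The log2 difference of siRNA 1 against siRNA 2 was 1.23 (SE 0.273, limma adjusted p = 0.0866), which did not pass the threshold over all genes.

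SUN2 stood below the control mean in both siRNA 1 libraries and above it in both siRNA 2 libraries. Its siRNA 2 libraries also overlapped the controls (8.56 and 9.41 against 8.93 and 8.06). The log2 difference of siRNA 1 against siRNA 2 was −1.42 (SE 0.552, limma adjusted p = 0.216), and the siRNA 2 side of it turned when columns were scaled to the same upper quartile or total. With 2 libraries a group, no test for a stray library was run.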

How the results depend on the processing

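Depth is unknown and each group has 2 libraries. Where 1 is left out, the lone library is assumed to vary like the other groups, and counts then check stability only. The members called, 0 in all 4 comparisons, became 2 (fit of only the groups compared, 21.8% of all genes called) and 1 (library weights, 26.1%) for siRNA 1; leaving out 1 library gave 0 to 2 for siRNA 1, 0 to 1 for siRNA 2, 0 to 2 for the mean and 0 to 3 for siRNA 1 against siRNA 2, all from leaving out an siRNA 2 library, which called 14.4% to 40.4% of all genes.

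Genes called in all, in the order siRNA 1, siRNA 2, mean and siRNA 1 against siRNA 2, were 187, 345, 137 and 376. They were 31, 112, 36 and 76 at the same upper quartile, 26, 19, 36 and 38 at the same total, and 3001, 11, 791 and 5 with library weights. A fit of only the groups compared gave 2438, 0 and 0 (the mean uses all groups, so it has no such fit). Without a filter siRNA 2, the mean and siRNA 1 against siRNA 2 gave 110, 43 and 239, and with a mean of at least 5 siRNA 2 and siRNA 1 against siRNA 2 gave 224 and 186. Leaving out 1 library gave 0 to 2390, 0 to 4588, 0 to 4021 and 0 to 4512.

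The labels share replicate numbers, but same-numbered libraries did not deviate together (correlations 0.00136, −0.00332 and 0.0459), so the numbers are not taken as pairs. With a replicate block limma called 0 genes in all 4 comparisons (2008, 2556, 2287 and 2436 at an unadjusted p under 0.05) and 0 members.

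Some member log2 fold changes turned sign, none of them called as reported. At the same upper quartile these were BANF1 (−0.0197 with siRNA 1, −0.0106 with siRNA 2, −0.0152 in the mean), EMD (−0.18) and SUN2 (−0.13) with siRNA 2, and LMNB1 (0.0953) and LEMD3 (0.14) in siRNA 1 against siRNA 2. At the same total they were BANF1 (−0.0483, −0.0279 and −0.0381), EMD (−0.20), SUN2 (−0.14), LMNB1 (0.0842) and LEMD3 (0.13). Leaving out 1 library gave, with siRNA 1, BANF1 −0.11 to 0.13, SUN1 −0.60 to 2.09, TMPO −0.72 to 0.28 and EMD −0.43 to 0.0654; with siRNA 2, EMD −0.21 to 0.29 and SUN1 −0.29 to 2.40. In the mean it gave BANF1 −0.00574 to 0.23, SUN1 −0.44 to 2.24, TMPO −0.98 to 0.0170 and EMD −0.32 to 0.18. In siRNA 1 against siRNA 2 it gave LEMD3 −0.11 to 0.0317, EMD −0.46 to 0.0150, LBR −0.66 to 2.29 and LMNA −1.47 to 0.23. The cause was not tested.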

Other observations

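ZMPSTE24, the protease that cuts prelamin A, stood at 40.05 and 39.4 in control, 32.1 and 36.7 with siRNA 1 and 45.8 and 41.9 with siRNA 2. FNTA, a subunit of the farnesyltransferase, read 19.7 in each control library, 17.8 and 17.7 with siRNA 1, and 20.3 and 30.02 with siRNA 2. FNTB, its catalytic partner, stood at 0.720 in siRNA 1 replicate 2 and 0.734 in siRNA 2 replicate 1, and at 10.8 to 15.8 in the 4 others. RCE1, the protease that follows farnesylation, stood at 1.44 in control replicate 1 and at 13.7 to 20.2 in the 5 others. HMGB2, a chromatin protein that falls in senescent cells, stood at 35.9 in control replicate 1 and in siRNA 2 replicate 2, and at 5.28 to 6.29 in the 4 others. CBX5, of the same heterochromatin family as CBX1, stood at 17.8 in siRNA 2 replicate 2 and at 0.190 to 0.815 in the 5 others. These genes were chosen after their values were seen, and none was called, CBX5 having failed the filter on low values.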
